A study of Sus scrofa with 12 samples.

Results

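The ZNF genes are the genes whose symbols start with ZNF and a digit, most of which encode proteins with C2H2 zinc fingers. The gene annotation of the pig assembly Sscrofa11.1 held 258 such symbols, and 254 of them were protein-coding genes on assembled chromosomes, of 19550 protein-coding genes in all. ZNF311 and ZNF839 have no assembled chromosome, and ZNF532 and ZNF648 are annotated there as long non-coding RNA. Of the 254 genes, 120 were clustered, with another ZNF gene within 100 kb, and 134 were single. Binding of C/EBP-β, a basic leucine zipper transcription factor that the gene CEBPB encodes, was profiled by chromatin immunoprecipitation and sequencing (ChIP-seq) in the endometrium, the lining of the uterus, of pregnant pigs. There were 3 C/EBP-β ChIP libraries of day 15 of pregnancy and 3 of day 12, made with 1 antibody from Abcam. The 6 matching input samples, 3 per day, were not analysed here. The labels give no treatment or genotype, and name no animals behind the replicates, so the spread between them may be technical.

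C2H2 zinc fingers fold around a zinc ion, and arrays of them read DNA sequence. Many ZNF proteins of mammals also carry a KRAB domain, which binds TRIM28 (KAP1) and through it brings in the histone methyltransferase SETDB1, HP1 proteins and the NuRD complex to silence chromatin, often over transposable elements. The family has grown by tandem duplication, so many of its genes lie side by side, and other ZNF proteins are activators or have no part in transcription.

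Each ChIP library is a list of summits, the single positions of highest enrichment that the authors' peak caller reported. The lists of the 3 day 15 libraries held 70152, 16529 and 11960 summits on the chromosomes, and those of the 3 day 12 libraries 6557, 33294 and 57728. A ZNF gene was counted as having a summit in a library when one lay within 5 kb of its start or its end. The files hold no read counts, so the depth is unknown, and longer lists reach more genes. Peak names fall into 2 processing sets, A with a directory path (day 15 replicates 2 and 3, day 12 replicate 1) and B without one (day 15 replicate 1, day 12 replicates 2 and 3). Peaks of day 15 replicate 3 are named for a sample without the protein, so its place among the C/EBP-β libraries rests on the labels. Genes are counted by presence of a summit in a library, and a gene-wise exact permutation of 3 against 3 libraries cannot give a two-sided p below 0.1. The counts and shares below are therefore set beside the spread between libraries and beside the same counts over all genes, with no p.

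Summits lay near more of the ZNF genes than of other genes in each library. On day 15, 80.7%, 63.0% and 52.8% of the 254 ZNF genes had a summit within 5 kb, and on day 12 it was 23.2%, 38.6% and 67.3%. Among the 19296 other protein-coding genes the shares were 64.6%, 44.4% and 37.4% on day 15 and 17.1%, 38.4% and 54.0% on day 12. The difference, ZNF minus other genes, was 16.1, 18.6 and 15.4 percentage points in the 3 day 15 libraries and 6.10, 0.150 and 13.3 in the 3 day 12 libraries. It averaged 16.7 ± 1.69 points on day 15 and 6.53 ± 6.61 on day 12 (SD, n = 3 each), and was above 0 in 6 of 6 libraries, by almost nothing in day 12 replicate 2. Within 2 kb of a gene end the difference averaged 14.9 ± 3.05 points on day 15 and 5.29 ± 4.04 on day 12 (SD, n = 3 each).

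The sign of that difference was not the same in all libraries once the lists were made equally long. Set A holds the 3 shortest lists and set B the 3 longest, so set and list length cannot be told apart here. The list of day 12 replicate 1 is the shortest and was not reduced, so its values are those given above. When the other libraries were reduced to their 6557 summits with the highest scores, 6.69%, 33.5% and 33.9% of the ZNF genes had a summit in the day 15 libraries, and 23.2%, 6.69% and 8.27% in the day 12 libraries. ZNF minus other genes was then 9.21 and 9.64 points in day 15 replicates 2 and 3 and 6.10 in day 12 replicate 1, the libraries of set A. It was -3.84 in day 15 replicate 1 and -2.79 and -1.42 in day 12 replicates 2 and 3, the libraries of set B. With summits of a score of at least 10, ZNF minus other genes was 4.78, 8.63 and 2.26 points in the day 15 libraries and -2.57, -5.22 and 0.658 in the day 12 libraries, so it was above 0 in libraries of both sets and below 0 in one of each.

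**Figure D1:**
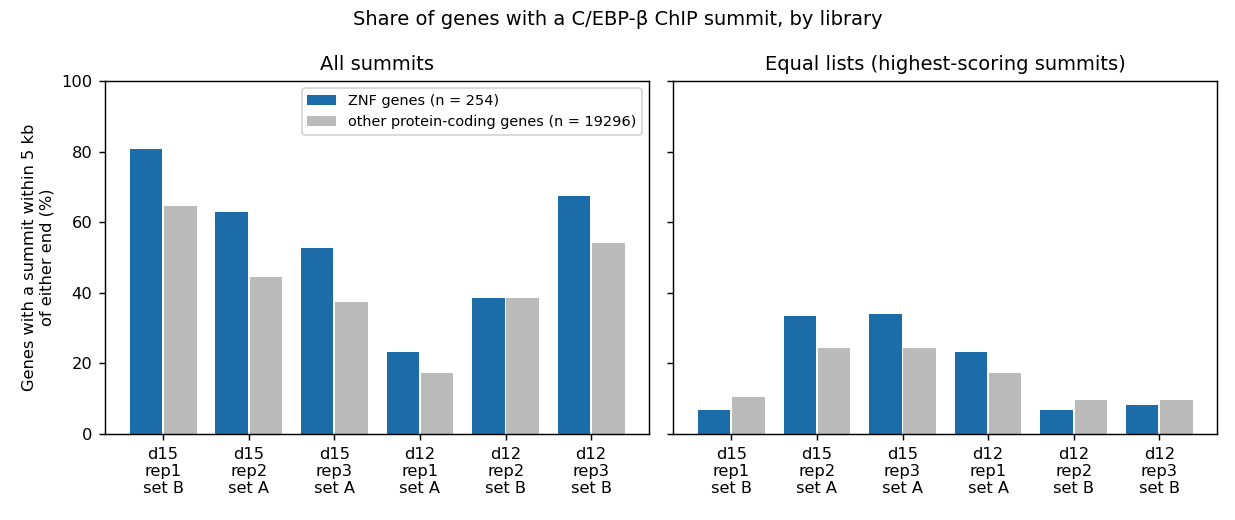
Percent of genes with a C/EBP-β summit within 5 kb of either end (vertical axis) in each library, for the 254 ZNF genes (blue) and the 19296 other protein-coding genes (grey), with all summits on the left and the 6557 summits with the highest scores per library on the right. Blue is above grey in all 6 libraries on the left, and on the right in the 3 libraries of set A, which are the 3 shortest lists.

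The nearest summit was also closer to ZNF genes in 5 of 6 libraries. The median distance from a gene end to the nearest summit was 0.403, 1.06 and 3.91 kb for ZNF genes in the day 15 libraries, against 1.17, 9.63 and 18.5 kb for other genes. In the day 12 libraries it was 41.5, 10.5 and 1.72 kb for ZNF genes, against 60.0, 10.3 and 3.72 kb for other genes, so in day 12 replicate 2 the order was the other way by a small margin. At the closest distance measured, within 250 bp of an end, 42.1%, 35.8% and 26.8% of ZNF genes had a summit on day 15, against 28.8%, 25.1% and 21.7% of other genes. On day 12 those shares were 9.84%, 12.6% and 25.6% of ZNF genes, against 7.28%, 11.5% and 19.4% of other genes.

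**Figure D2:**
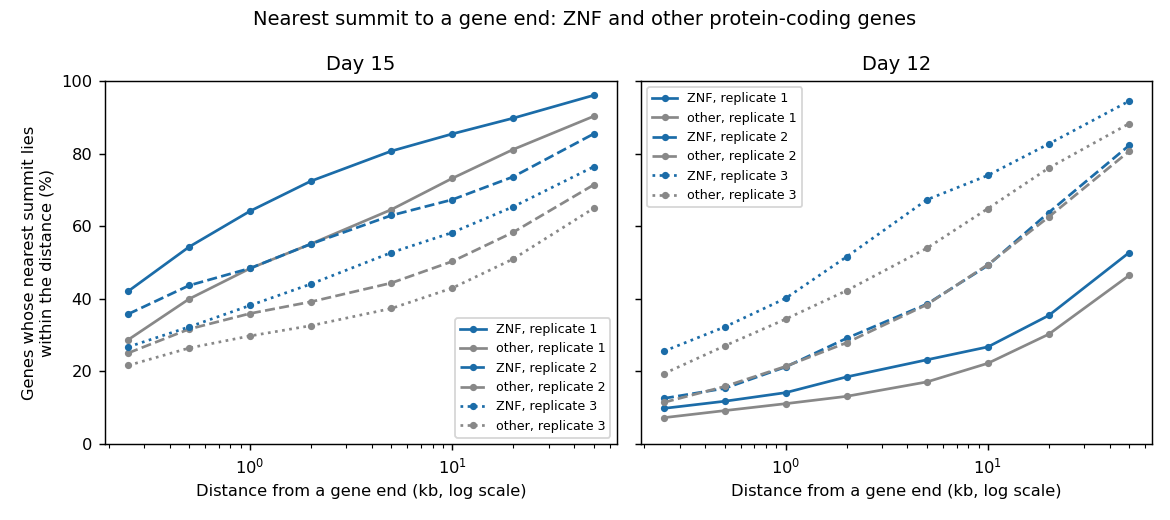
Percent of genes whose nearest summit lies within a given distance of a gene end (horizontal axis in kb, log scale), for ZNF genes (blue) and other protein-coding genes (grey), with 1 line style per replicate and day 15 on the left. The blue line lies above the grey line of the same replicate at every distance plotted in 5 libraries, and the pair of day 12 replicate 2 nearly coincides.

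The summits near ZNF genes were not the strongest of their lists. Each summit was ranked by the authors' score within its own list, as a percentile. The median percentile of the best summit within 5 kb was 61.8, 63.0 and 60.0 for ZNF genes in the day 15 libraries, against 66.9, 64.2 and 60.2 for other genes. In the day 12 libraries it was 35.8, 51.4 and 56.7 for ZNF genes, against 47.3, 57.2 and 62.8 for other genes, so it was lower for ZNF genes in 6 of 6 libraries. Several summits per gene were also less common in 5 of the 6 libraries. The best summit is the highest of those in the window, so its percentile can rise with their number. The part of this in the lower percentiles was not tested. Of the genes with a summit, 49.8%, 19.4% and 19.4% of ZNF genes had more than 1 on day 15, against 57.7%, 28.6% and 21.9% of other genes, and on day 12 the shares were 8.47%, 35.7% and 41.5% of ZNF genes against 13.8%, 35.4% and 48.9% of other genes.

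Gene length and crowding were alike in both groups. The median length was 21054.5 bp for ZNF genes and 20632.5 bp for other genes, and another protein-coding gene lay within 10 kb of 68.5% of ZNF genes and 67.6% of other genes. Of the ZNF genes, 60 overlapped another protein-coding gene, so a summit may count for both. Among genes with a neighbour within 10 kb, 71.3% of ZNF genes and 54.9% of other genes had a summit on day 15, as means of 3 libraries, and on day 12 these were 46.4% and 39.8%. Among genes with no such neighbour the means were 52.9% of ZNF genes and 36.1% of other genes on day 15, and 35.8% and 29.7% on day 12. The best summit of a ZNF gene lay nearer to the end of a gene outside the family for 18%, 18.8% and 19.4% of the ZNF genes with a summit on day 15, and for 28.8%, 17.3% and 19.9% on day 12.

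More ZNF genes had a summit on day 15 than on day 12. The mean share was 65.5 ± 14.1% on day 15 and 43.0 ± 22.4% on day 12 (SD, n = 3 each), and the libraries of the days overlapped, since day 12 replicate 3 lay above day 15 replicates 2 and 3. Day 15 minus day 12 was 22.4 points for ZNF genes over all libraries, 34.6 within set A and 27.8 within set B, and for other genes it was 12.3, 23.7 within set A and 18.4 within set B. In the lists of equal length it was 10.4 points for ZNF genes within set A and -0.787 within set B, and for other genes it was 7.11 and 0.954. Without day 15 replicate 3, the library named above, the day 15 mean was 71.8% and day 15 minus day 12 was 28.8 points. The numbers of summits move with the day within each set: the day 15 lists were longer than the day 12 lists of their own set, and their part in this difference was not tested.

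Called on a day, meaning with a summit within 5 kb in at least 2 of its 3 libraries, were 167 ZNF genes on day 15 (65.7%, against 46.3% of all protein-coding genes) and 115 on day 12 (45.3%, against 38.1%). A summit was found in more day 15 than day 12 libraries for 134 ZNF genes (52.8%, against 35.3% of all genes), in more day 12 libraries for 23 (9.06%, against 11.2%) and in equal numbers for 97. The most common pattern was a summit in all 3 day 15 libraries and in 2 day 12 libraries, with 48 genes. Within 2 kb, 145 ZNF genes were called on day 15 (57.1%, against 40.4% of all genes) and 85 on day 12 (33.5%, against 27.7%). At that distance a summit was found in more day 15 libraries for 129 (50.8%, against 35.4%) and in more day 12 libraries for 15 (5.91%, against 7.51%).

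**Figure D3:**
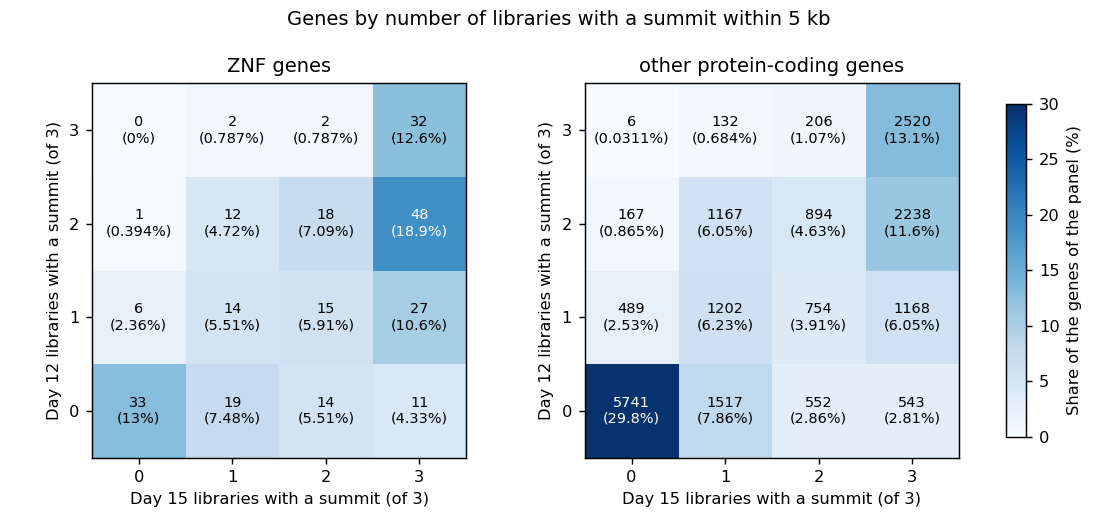
Number and percent of genes by how many day 15 libraries (horizontal axis, of 3) and day 12 libraries (vertical axis, of 3) had a summit within 5 kb, for ZNF genes on the left and other protein-coding genes on the right, with darker blue for a larger share of the panel's genes. The ZNF panel has 33 genes with no summit and 48 with 3 day 15 and 2 day 12 libraries; the darkest cell of the other genes is the one with no summit, 5741 genes.

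With all summits counted, a summit in all 6 libraries was about as common among ZNF genes as among all genes. It was present within 5 kb for 32 ZNF genes (12.6%, against 13.1% of all genes) and within 2 kb for 25 (9.84%, against 9.71%). Within 5 kb it was less common among ZNF genes at a score of at least 10 (4 genes, 1.57%, against 2.95% of all genes). The same held in lists of equal length (4 genes, 1.57%, against 3.53%). Of the 32, 16 were single and 16 clustered, and 15 lay on chromosome 6. Their mean score percentile over the 6 libraries had a median of 65.7, against 74.6 for the other genes with a summit in all 6 libraries. It was above 90 for 4 of the 32, between 50 and 90 for 22 and under 50 for 6. The 32 include ZNF143, ZNF207, which takes part in assembling the mitotic spindle in human cells, ZNF217, a human transcriptional regulator amplified in breast cancers, and ZNF335, a human gene needed for growth of neural progenitors. Joining summits within 200 bp across libraries gave a region with a summit of every library within 5 kb of 18 ZNF genes (7.09%, against 8.87% of all genes), at 15 distinct regions, and within 2 kb of 14 (5.51%, against 6.81%). For 7 of the 18 genes the region lay nearer to an end of another protein-coding gene, and for 7 it lay inside the ZNF gene.

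The strongest shared site of the family lay at ZNF576 and ZNF428, overlapping genes on chromosome 6 (50442180 to 50446062 and 50444057 to 50460643 in Sscrofa11.1). Its summits fell between positions 50442097 and 50442134, which is 46 to 83 bp outside ZNF576 and 1923 bp or more from ZNF428. The score, on a −log10 scale of significance, was 281, 104 and 81.3 in the day 15 libraries and 79.6, 122 and 119 in the day 12 libraries. Its percentile was 99.5 or higher in each library, at a mean of 99.8. This span also holds the end of IRGQ, a gene for a GTPase-like protein outside the family, so its summits count for that gene as well. A second summit lay 727 to 790 bp from an end of ZNF428 in every library.

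ZNF750, a regulator of epidermal differentiation in humans, had the next highest mean percentile of the genes with a summit within 2 kb in all 6 libraries, 91.9. It is single and lies on chromosome 12 at 398498 to 407812, inside TBCD, which encodes a tubulin folding cofactor. The best summits fell at 399535 to 399576, inside the gene, with percentiles of 99.7, 95.8 and 74.8 in the day 15 libraries and 82.5, 99.3 and 99.4 in the day 12 libraries. The lower values were thus those of set A, the 3 shortest lists, on both days, and no separation of the days was seen. ZNF541, known from male germ cells of mice, had a mean percentile of 90.8 at a region 4308 bp from its end, which is 197 bp from an end of NAPA, a gene of vesicle fusion, so it is not among the genes within 2 kb.

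The other named genes with a summit within 2 kb in all 6 libraries had mean percentiles between 67.1 and 78.9. They were ZNF565, ZNF444 and ZNF524 on chromosome 6, ZNF672 on chromosome 2, ZNF704 on chromosome 4, ZNF248 on chromosome 14, ZNF143 on chromosome 9, ZNF367 on chromosome 10 and ZNF79 on chromosome 1. ZNF143 is a sequence-specific activator found at many promoters and at anchors of chromatin loops in human cells. Its summits lay at 104771 to 104913, at or within 137 bp of the end of the gene at 104776, with percentiles of 81.0, 96.2 and 88.7 in the day 15 libraries and 53.3, 57.8 and 46.6 in the day 12 libraries. Every day 15 percentile was above every day 12 one, but ranks from lists of different lengths do not show a change. ZNF704 had percentiles of 94.8, 63.8 and 45.8 in the day 15 libraries and 49.7, 95.7 and 88.9 in the day 12 libraries, so here too the high values were those of set B, the 3 longest lists. The 6-library region of ZNF524 lay inside the gene, 160 bp from an end of FIZ1, and so may count for both.

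A summit in all 3 day 15 libraries and in no day 12 library was found for 11 ZNF genes (4.33%, against 2.83% of all genes). None showed the opposite pattern (0, against 0.0307% of all genes). The 11 genes are ZNF135, ZNF366, ZNF205, ZNF800, ZNF304, ZNF18, ZNF12, ZNF623, ZNF438, ZNF471 and ZNF8. Within 2 kb there were 16 (6.30%, against 3.44% of all genes) and again none in the opposite direction (0, against 0.0102%). The 2 kb count holds all of the 11 but ZNF205, and adds ZNF213, ZNF526, ZNF787, ZNF593, ZNF451 and ZNF84, which had day 12 summits farther out.

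The mean percentile of these 11 genes over the day 15 libraries lay between 12.2 and 54.8, with higher and lower values in single libraries. The best summit of ZNF471 in day 15 replicate 2 was at percentile 0.424, with a score of 1.46. That of ZNF623 in day 15 replicate 3 was at 0.663, with a score of 1.49. Both scores lie below 2.02, the lowest score listed in day 12 replicate 1. ZNF135, on chromosome 6, had the highest mean percentile, 54.8, with percentiles of 72.1, 82.8 and 9.59 in the day 15 libraries at positions 62754346 to 62754454, inside the gene. Its nearest summits in the day 12 libraries were 78951, 9480 and 9464 bp away. ZNF366, whose human protein represses the oestrogen receptor and which marks dendritic cells, had percentiles of 29.7, 74.8 and 14.8 in the day 15 libraries, with summits 131 to 373 bp from its end, and no day 12 summit within 12598 bp. The same region is 212 bp from an end of TNPO1, a nuclear import gene.

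ZNF800, a repressor of endocrine differentiation in the human gut, had summits at 129, 141 and 195 bp from its end in the day 15 libraries and at 833352, 22409 and 26031 bp in the day 12 libraries. Its day 15 summits lay outside ZNF800 and inside LOC110257623, another protein-coding gene, 62 bp from an end of that gene. At ZNF304, a human KRAB protein gene, the day 15 summits of the 3 libraries fell within positions 61740598 to 61740608, the tightest of the 11, with percentiles of 42.8, 17.9 and 41.1. Its nearest day 12 summits were 136340, 26231 and 26322 bp away. ZNF12, another human KRAB protein gene, had percentiles of 36.5, 1.70 and 58.0 on day 15, while day 12 replicates 2 and 3 had summits 7270 and 7191 bp away, outside the window. The summit counted for ZNF205 lay 618 bp from an end of its neighbour ZNF213 and 3268 bp or more from its own.

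Raising the score to at least 5 left none of these 11 genes in the pattern, and 12 other ZNF genes took their place (4.72%, against 3.16% of all genes). With lists of equal length there were 0, against 0.292% of all genes. Leaving out a library, which cannot remove any of the 11, gave between 12 and 34 such genes. There were 34 when day 12 replicate 3 was dropped (13.4%, against 8.04% of all genes) and 22 when day 15 replicate 3 was (8.66%, against 4.66%), so the share of all genes rose as well. The identity of the genes that separate the days thus depended on the threshold.

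The day 12 side was small. A summit in at least 2 more day 15 than day 12 libraries was found for 52 ZNF genes (20.5%, against 11.8% of all genes), and in at least 2 more day 12 libraries for 3 (1.18%, against 1.58%). These 3 were ZNF713, ZNF662 and ZNF37A, named here after their values were seen. ZNF662 on chromosome 13 had its summit in day 15 replicate 1, at percentile 97.7, and in all 3 day 12 libraries, at 46.2, 92.4 and 96.4. It lay at 26305114 to 26305179, at least 4804 bp outside the gene and inside ACKR2, a scavenging chemokine receptor gene. Day 15 replicates 2 and 3 had their nearest summits 23508 and 23655 bp from ZNF662.

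No summit lay within 5 kb of 33 ZNF genes in any library (13.0%, against 29.5% of all genes), and within 2 kb of 56 (22.0%, against 38.9%). Those named by the rule were ZNF185, ZNF215, ZNF275 and ZNF300. ZNF185 encodes a LIM domain protein of the actin cytoskeleton in humans and carries no C2H2 finger, so the symbol does not always stand for one. Also without a summit were ZNF536, known from neural differentiation in mammals, and ZNF804A, a human gene in a locus associated with schizophrenia. Of the 33, 9 lay on chromosome 6 and 4 on chromosome X.

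The share of single minus the share of clustered ZNF genes lay between -7.41 and 2.82 points in the 6 libraries. On day 15, 79.9%, 63.4% and 49.3% of the 134 single genes had a summit within 5 kb, against 81.7%, 62.5% and 56.7% of the 120 clustered genes. On day 12 the shares were 23.9%, 38.8% and 68.7% of single genes, against 22.5%, 38.3% and 65.8% of clustered genes. Single minus clustered was -2.77 ± 4.25 points on day 15 and 1.56 ± 1.19 on day 12 (SD, n = 3 each). Its sign differed between day 15 libraries, and the day 12 sign turned with the window, to -1.02 within 2 kb and -3.16 within 10 kb. Just inside the 100 kb limit were ZNF577, 89.7 kb from the next ZNF gene with a summit in 2 day 15 and 2 day 12 libraries, ZNF12 at 81.8 kb (3 and 0) and ZNF248 at 78.8 kb (3 and 3). Just outside were ZNF570 at 114 kb (2 and 0) and ZNF526 and ZNF574, 126 kb apart from each other (3 and 2, and 3 and 1).

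The 120 clustered genes formed 37 runs, 19 of them pairs. In the 6 runs of 6 or more genes, which hold 38 genes, 29 were called on day 15 (76.3%, against 46.3% of all genes) and 13 on day 12 (34.2%, against 38.1%). The longest, 8 genes on chromosome 18 from ZNF282 to ZNF775 (55495145 to 55954153), had the fewest genes with a summit for its size among these 6. Of its genes, 4, 3 and 2 had a summit in the day 15 libraries and 0, 0 and 2 in the day 12 libraries.

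Both 6-gene runs of chromosome 3 had a summit at nearly every gene on day 15. From ZNF689 to ZNF48 (17766740 to 17925593), 6, 6 and 5 genes had one in the day 15 libraries and 1, 3 and 5 in the day 12 libraries, and ZNF688, ZNF764, ZNF768 and ZNF771 had one in 5 of 6 libraries. From ZNF597 to ZNF205 (38788447 to 39105633), 6, 6 and 6 genes had one in the day 15 libraries and 0, 3 and 5 in the day 12 libraries. ZNF200, ZNF263 and ZNF597 of that run had a summit in 5 of 6 libraries. The missing library was day 12 replicate 1, the shortest list, for each of these genes except ZNF771, which lacked day 12 replicate 2. Neighbours shared summits in both runs. In every library with a summit, the best summit had the same position for ZNF764 and ZNF768, and likewise for ZNF263 and ZNF200. The day 15 summits of ZNF213 and ZNF205 were the same as well. In such pairs 1 summit thus counted for both genes.

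On chromosome 6 the runs differed from each other. From ZNF135 to ZNF446 (62754034 to 63066130), 6, 5 and 5 of 6 genes had a summit in the day 15 libraries and 0, 0 and 3 in the day 12 libraries, so 6 were called on day 15 and 0 on day 12. The 5 genes from ZNF567 to ZNF566 (45709663 to 45927775) had the same pattern, with 5, 4 and 3 on day 15 and 0, 0 and 4 on day 12. From ZNF628 to ZNF581 (59619677 to 59767421), 6, 5 and 3 of 6 genes had one in the day 15 libraries and 3, 2 and 5 in the day 12 libraries, with ZNF524 and ZNF865 in all 6. In day 12 replicate 1 the same summit, at 59721075, counted for ZNF524 and ZNF865. From ZNF667 to ZNF835 (60638748 to 60940612), 4, 4 and 4 of 6 genes had one on day 15 and 2, 2 and 4 on day 12, with ZNF583 in all 6 and ZNF582 in none. The contrast of these 2 overlapping genes rests on the window. The 6-library region of ZNF583, at 60721315 to 60721607, lay inside ZNF582, 5609 bp from an end of that gene. The nearest summits to an end of ZNF582 were 5271 to 5901 bp away, just beyond 5 kb. The run of ZNF10, the human gene from which the KRAB repressor domain of many synthetic repressors was taken, had 4, 2 and 4 of its 5 genes with a summit in the day 15 libraries and 2, 2 and 4 in the day 12 libraries. Pairs could be empty as well: ZNF23 with ZNF19 and ZNF782 with ZNF510 had no summit in any library.

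**Figure D4:**
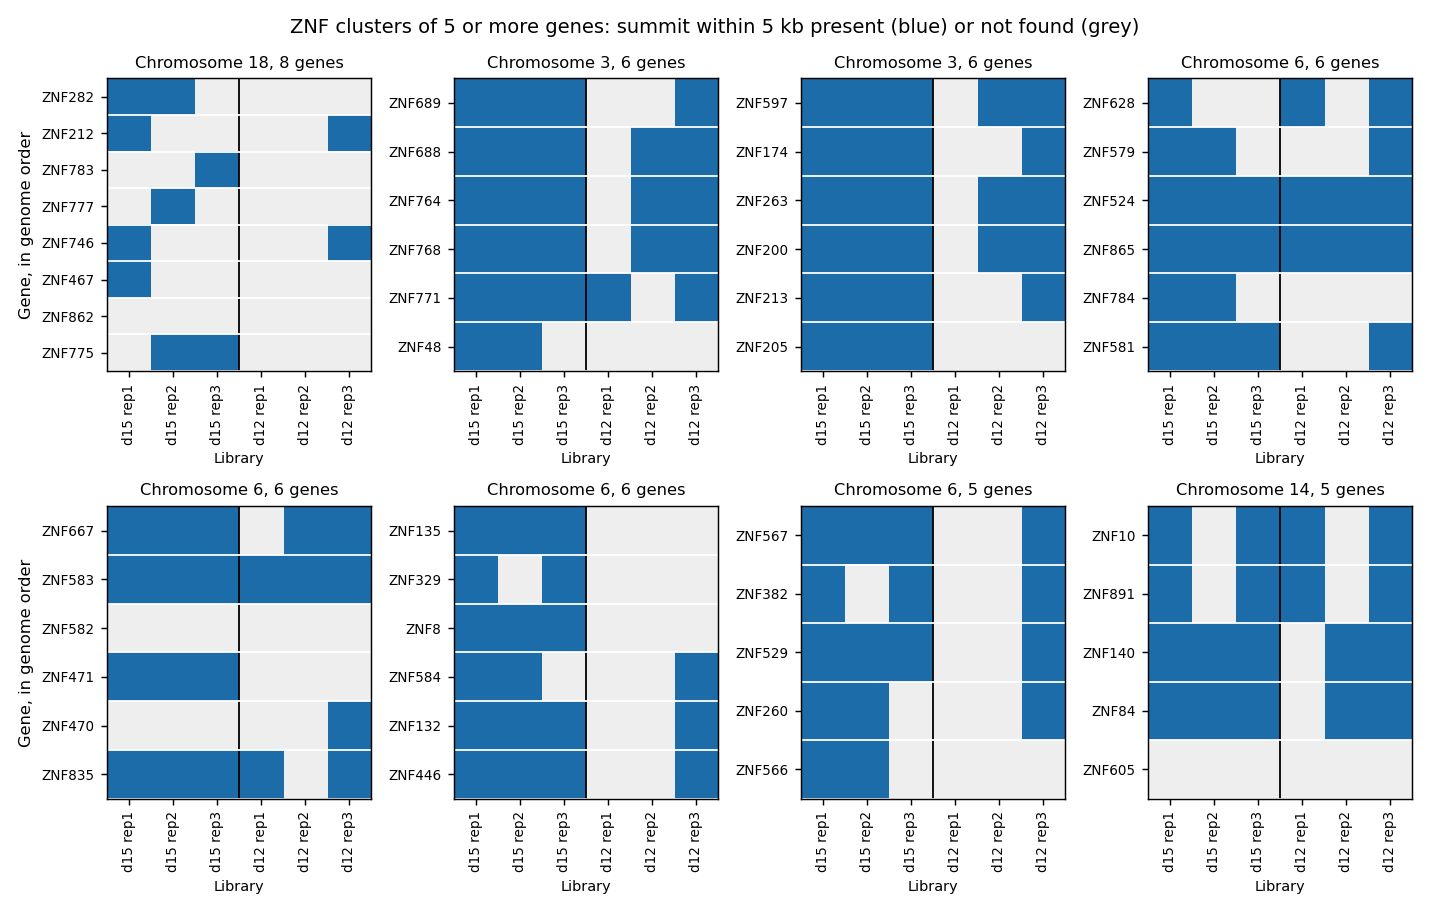
Presence (blue) or no summit found (grey) within 5 kb of each ZNF gene (rows, in genome order) in each library (columns, day 15 left of the line and day 12 right of it), for the 8 clusters of 5 or more genes. The runs from ZNF135 and from ZNF567 are mostly filled on day 15 and empty in day 12 replicates 1 and 2; the run of 8 genes on chromosome 18 is mostly grey throughout.

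Chromosome 6 holds 77 of the 254 ZNF genes, chromosome 3 holds 31 and chromosome 14 holds 21. On chromosome 6 the mean share with a summit was 71.4% of ZNF genes and 53.9% of other genes on day 15, and 45.0% and 39.6% on day 12. Outside chromosome 6, ZNF minus other genes was 14.7 ± 1.58 points on day 15 and 6.02 ± 7.12 on day 12 (SD, n = 3 each), so the difference was not confined to that chromosome. The highest mean share on day 15 among chromosomes with 10 or more ZNF genes was on chromosome 7, where 100%, 84.6% and 53.8% of 13 ZNF genes had a summit in the day 15 libraries, and 15.4%, 46.2% and 76.9% in the day 12 libraries.

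Among the chromosomes with 10 or more ZNF genes, 18 and X had the lowest mean shares of ZNF genes with a summit on both days. The 41 ZNF genes of chromosomes with fewer than 10 had means of 50.4% on day 15 and 41.5% on day 12. Of the 10 ZNF genes of chromosome 18, 8 form the run from ZNF282 to ZNF775, and a mean of 50% had a summit on day 15 and 13.3% on day 12, against 46.1% and 33.2% of the other genes of the chromosome. On chromosome X the means were 25.0% of 12 ZNF genes on day 15 and 16.7% on day 12, against 30% and 19% of its other genes. With so few genes per chromosome, 1 gene moves a share by several points, and these shares were not compared by a test.

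**Figure D5:**
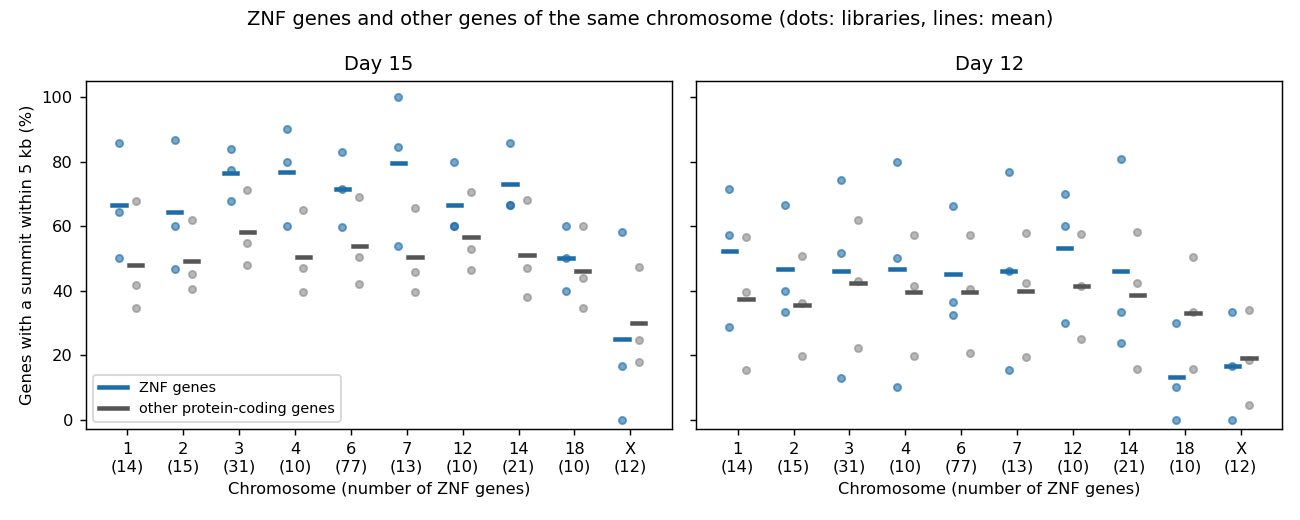
Percent of ZNF genes (blue) and of other protein-coding genes of the same chromosome (grey) with a summit within 5 kb, for the chromosomes with 10 or more ZNF genes (horizontal axis, number of ZNF genes in brackets), day 15 on the left and day 12 on the right; dots are libraries and lines their means. The blue line is above the grey one on 9 of 10 chromosomes on day 15 and on 8 of 10 on day 12, and below it on chromosome X on both days.

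A broad list of chromatin silencing genes, among them TRIM28 and SETDB1, was compared by the same counts. Of its 31 genes, 24 were called on day 15 (77.4%, against 46.3% of all genes) and 18 on day 12 (58.1%, against 38.1%), and 12 had a summit in all 6 libraries (38.7%, against the 13.1% of all genes given above). TRIM28, the corepressor that KRAB domains bind, had a summit in 3 day 15 and 2 day 12 libraries, and SETDB1 in all 6. ATF7IP, the partner that stabilises SETDB1, CBX3 and CBX5, which encode HP1 proteins, and CHD3, a NuRD remodeller, also had one in all 6. DNMT1, the maintenance DNA methyltransferase, and SUV39H1, a histone H3 lysine methyltransferase, had none in any library.

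Other zinc finger families fell on both sides of the ZNF genes. Of 41 ZBTB genes, most of whose products join a BTB dimerisation domain to zinc fingers (ZBTB8OS matches the symbol alone), 31 were called on day 15 (75.6%, against 46.3% of all genes) and 21 on day 12 (51.2%, against 38.1%), and 13 had a summit in all 6 libraries (31.7%, against 13.1%), among them ZBTB1, ZBTB10, ZBTB14 and ZBTB20. Of 28 KLF and SP genes, 19 were called on day 15 (67.9%, against 46.3% of all genes) and 18 on day 12 (64.3%, against 38.1%), with 10 in all 6 libraries (35.7%, against 13.1%), among them KLF10, KLF13, KLF2 and KLF3; SP110 and SP140 match the symbol rule but are not factors of that family. Of 13 ZFP genes, 7 were called on day 15 (53.8%, against 46.3% of all genes) and 5 on day 12 (38.5%, against 38.1%), and the 4 in all 6 libraries (30.8%, against 13.1%) were ZFP91 and ZFP36, ZFP36L1 and ZFP36L2, the last 3 of which encode CCCH proteins that destabilise mRNA. Of 18 ZSCAN and ZKSCAN genes, many of which carry a SCAN domain beside their fingers, 6 were called on day 15 (33.3%, against 46.3% of all genes) and 5 on day 12 (27.8%, against 38.1%), and ZKSCAN5 alone had a summit in all 6 (5.56%, against 13.1%). None of these differences between families was tested.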

How the data were processed

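The tools were MACS2 2.1.2, Bowtie2 2.3.5.1 and SAMtools 1.9, and the build was susScr11, per the submitters' processing notes. The threshold, the use of the input, and the treatment of duplicates and of reads that map to several copies of a gene were not given in the sources used here; the last bears on ZNF genes, many of which have similar copies nearby. The authors deposited summits 1 bp wide, each with a score on a −log10 scale, of p-values or of q-values without saying which; the lowest score was 2.02 in day 12 replicate 1 and 1.30 to 1.37 in the other libraries. Scores served for ranks and cut-offs inside a list. Depth is unknown.

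Summits on the chromosomes were used, 196220 of 198341, with positions counted from 1. Starts and ends of genes were read from RefSeq's table for Sscrofa11.1, which gives no strand, so both ends of each gene were used. As a check for a library deposited more than once, pairs of lists shared at most 1.42% of the shorter list's exact positions. Windows were 5 kb and 2 kb, and summits within 200 bp were joined into regions. Python 3.11.15, NumPy 2.4.6 and pandas 2.3.3 were used, and gene counting was tested on simulated lists.

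The members, the lists and the alternatives were chosen with earlier results of these data known. Of 34 entries of the list of silencing genes, 31 matched by symbol (not TASOR, MTA1 or EHMT1). The rule for names took the 12 genes with a summit within 2 kb in all 6 libraries and the highest mean percentile, the first 10 that separate the days, up to 4 genes with a summit in 5 or more libraries from each of the largest clusters, of which 5 were tied for second place, the first 4 single genes with none, and up to 4 per related list. ZNF8, the genes added by the 2 kb window, the other members of clusters, ZNF541 and others described by role were named after their values were seen. Protein and promoter features planned for the family were not run.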

Additional observations from a re-analysis of the deposited data

Results flagged for a closer look

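The sign of the difference between ZNF and other genes in lists of equal length differed between the processing sets. ZNF minus other genes averaged 8.31 ± 1.93 points in the 3 libraries of set A and -2.68 ± 1.22 in the 3 of set B (SD), a difference of 11 points, with all 3 of one set above 0 and all 3 of the other below it. Set A is also the 3 shortest lists, of which that of day 12 replicate 1 was used whole, so processing set and list length cannot be told apart. The difference between sets was not tested.

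The 2 ZNF symbols annotated as long non-coding RNA, which stand outside the comparisons, had summits within 5 kb too. ZNF532 on chromosome 1 (161878099 to 161986028) had 6 in all, with 4, 0 and 0 in the day 15 libraries and 0, 1 and 1 in the day 12 libraries. ZNF648 on chromosome 9 (123505789 to 123706692) had 5, with 2, 0 and 0 in the day 15 libraries and 0, 1 and 2 in the day 12 libraries. Both were found in the 3 longest lists alone, those of set B.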

How the results depend on the processing

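Of the values recomputed for the main comparisons, 128 kept their direction and moved by less than the spread between libraries (counts: by at most 1.5 times). A further 34 moved more and 4 changed sign. For single genes no spread was used: 553 values stayed the same, 149 changed by any amount and 0 changed sign. A gene with equal shares on both days, and so a difference of 0, could not change sign. No paired analysis was possible because the results come from no test, and 3 replicate pairs could not give a p below 0.25. Single minus clustered on day 12 changed sign to -1.02 within 2 kb and -3.16 within 10 kb, and was 6.42 with the gene body, 3.10 at a score of 5, 5.17 at a score of 10, 4.65 in equal lists and 5.36 with a cluster distance of 250 kb; on day 15 it changed sign to 3.81 at a score of 10. ZNF minus other genes on day 12 changed sign to -2.38 at a score of 10. On day 15 it was 14.9 within 2 kb, 14.8 within 10 kb, 11.5 at a score of 5, 5.22 at a score of 10, 5.0 in equal lists and 14.3 with each summit given to the nearest gene end. The mean share of ZNF genes on day 15 was 50.5%, 29.8% and 24.7% at a score of 5, a score of 10 and in equal lists, and on day 12 it was 12.7% at a score of 10 and in equal lists. The equal-list means pool unlike processing sets, in unequal numbers per day. In set A the share was 33.7% on day 15 and 23.2% on day 12, and in set B 6.69% and 7.48%. ZNF minus other genes on day 15 was 9.42 in set A and -3.84 in set B. Called on day 15 were 64 at a score of 10 and 67 in equal lists, and on day 12 there were 65, 24 and 18 at a score of 5, a score of 10 and in equal lists. In all 6 libraries were 16, 4 and 4 genes under those settings (6.30%, 1.57% and 1.57%, against 8.45%, 2.95% and 3.53% of all genes). With the nearest gene end there were 20 (7.87%, against 8.62%). Shares of all genes called were not computed at those scores, in equal lists or with a library left out. In equal lists 0 genes separated the days towards day 15 and 1 towards day 12, against 57 of all 19550 genes in each direction. The score cut-offs and the equal lists leave fewer summits, while the 10 kb window, the gene body and the cluster distance remove none. The cause of these changes was not tested. Leaving out 1 library at a time gave 57.9% to 71.8% on day 15 and 30.9% to 53.0% on day 12 for the mean share, 12.5 to 34.6 for day 15 minus day 12, 15.8 to 17.4 on day 15 and 3.12 to 9.72 on day 12 for ZNF minus other genes, and -4.61 to -0.442 on day 15 and 0.927 to 2.1 on day 12 for single minus clustered. Called were 120 to 167 genes on day 15 and 36 to 115 on day 12 (56 without day 12 replicate 2 and 36 without day 12 replicate 3, where both libraries left must have a summit). All libraries left had a summit for 32 to 65 genes, with 65 without day 12 replicate 1 (25.6%, against 23.1% of all genes). The days were separated by 12 to 34 genes towards day 15, with 34 without day 12 replicate 3 (13.4%, against 8.04% of all genes). Towards day 12 they were separated by 0 to 2, against 6 to 173 of all 19550 genes.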
